A study of Mus musculus with 6 samples.

Results

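The genes described here are 10 components of the Polycomb repressive complex 2 (PRC2) and its counterpart enzymes: the catalytic subunits Ezh1 and Ezh2, the core subunits Eed, Suz12, Rbbp4 and Rbbp7, the accessory subunits Jarid2, Mtf2 and Phf19, and the demethylase Kdm6b. They were taken by gene symbol from a count table of 35976 genes, and all 10 had a row. The table holds polyadenylated RNA from mouse chondrocytes (C57BL/6 x 129S4/SvJae) of hind limb articular cartilage, taken from embryos at day 18.5 and grown on plastic for 16 population doublings. Every culture received doxycycline at 2 µg/ml, which induced a histone H3.3 transgene. In the 3 H3K9M libraries (replicates 1, 3 and 5) the transgene carries methionine in place of lysine 9, and the labels describe H3K9 methylation as suppressed. In the 3 H3WT libraries (replicates 1, 2 and 4) it is wild-type H3.3. Cultures without an induced transgene were not analysed here, and the labels do not say whether a replicate was 1 embryo or a pool, nor what drives the inducible transgene.

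PRC2 places methyl groups on lysine 27 of histone H3, a mark that keeps developmental genes silent. EZH2 or EZH1 carries the catalytic SET domain and works only in complex with EED and SUZ12, while the accessory subunits direct the complex to CpG-rich chromatin. KDM6B, KDM6A and, weakly, the Y-encoded UTY remove the mark, and Polycomb repressive complex 1 (PRC1) binds it through CBX proteins. In cartilage PRC2 is known as a regulator of chondrocyte growth and hypertrophy. The comparison sets transcripts of this H3K27 machinery in cells with suppressed H3K9 methylation against those in cells with wild-type H3.3.

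Library totals ran from 15113675 to 19606082 counts. Values below are normalised counts (CPM, per 1000000 counts of a library, scaled by trimmed mean of M values). Genes were tested by edgeR's quasi-likelihood test, and p-values were adjusted by Benjamini-Hochberg over the 13761 genes that passed a filter on low counts. Gene positions are those of GRCm38 (mm10), and every one of the 10 is annotated as protein coding. Chondrocyte markers were present in every library, with the 9 markers summing to 7317 to 11441.5 CPM in H3K9M and 7219 to 19043 CPM in H3WT, and all 9 were fitted lower in H3K9M (1 with an unadjusted p under 0.05, 0 adjusted). The 6 fibroblast markers summed to 11702 to 29859 and 9766 to 34517 CPM. Skeletal muscle markers stood at 123 and 191 CPM in H3K9M replicates 1 and 3. They stood at 15.05 CPM in H3K9M replicate 5 and lower in every H3WT library. They were led by Des, Myod1 and Myh3 (2 of the 8, Myf5 and Pax7, had 0 counts). All 4 tested muscle markers were fitted higher in H3K9M, with a median log2 fold change of 4.84. In 3 of them, Des, Myod1 and Myh3, the groups did not overlap and the unadjusted p was under 0.05 (0 adjusted, edgeR). Macrophage and blood markers summed to 6.16 to 15.2 CPM in H3K9M and 3.37 to 4.32 CPM in H3WT, with Ptprc, Adgre1 and Hbb-bs at 0, and endothelial markers to at most 0.825 CPM, with Cdh5 at 0. Whether these transcripts came from other cells or from the chondrocytes themselves was not tested, and neither was their part in the results. In bulk RNA fewer cells of a type and less RNA per cell cannot be told apart. Fits were repeated without H3K9M replicates 1 and 3, with the lone H3K9M library then taken to vary like the H3WT libraries.

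No difference between H3K9M and H3WT cells passed the test in any of the 10 genes. All 10 passed the filter, the lowest count of any of them in any library being 139, and 0 had an adjusted p under 0.05 (the share over all tested genes was 0.0%). At an unadjusted p under 0.05 there were also 0 of 10, against 12.2% of all tested genes (6.42% higher and 5.77% lower in H3K9M). The libraries of the groups overlapped in every one of the 10, while they did not overlap in 19.4% of tested genes. DESeq2, which called 367 genes in the whole table, and limma-voom, which called 0, likewise called 0 of the 10 at either threshold. Fitted log2 fold changes were above 0 in 5 genes and below 0 in 5, with a median of -0.02 beside -0.003 over all tested genes, and adjusted p-values ran from 0.474 to 0.993. Once length and GC were offset, 3 were above 0 and 7 below, with a median of -0.11. For 9 of the 10 genes the 95% interval of the fold change excluded a 2-fold difference in either direction, as it did for 59.1% of tested genes. Phf19 was the exception. Without H3K9M replicates 1 and 3, which had the highest muscle markers, the median log2 fold change of the 10 was -0.02. The H3K9M library left in that fit also held muscle transcripts.

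**Figure D1:**
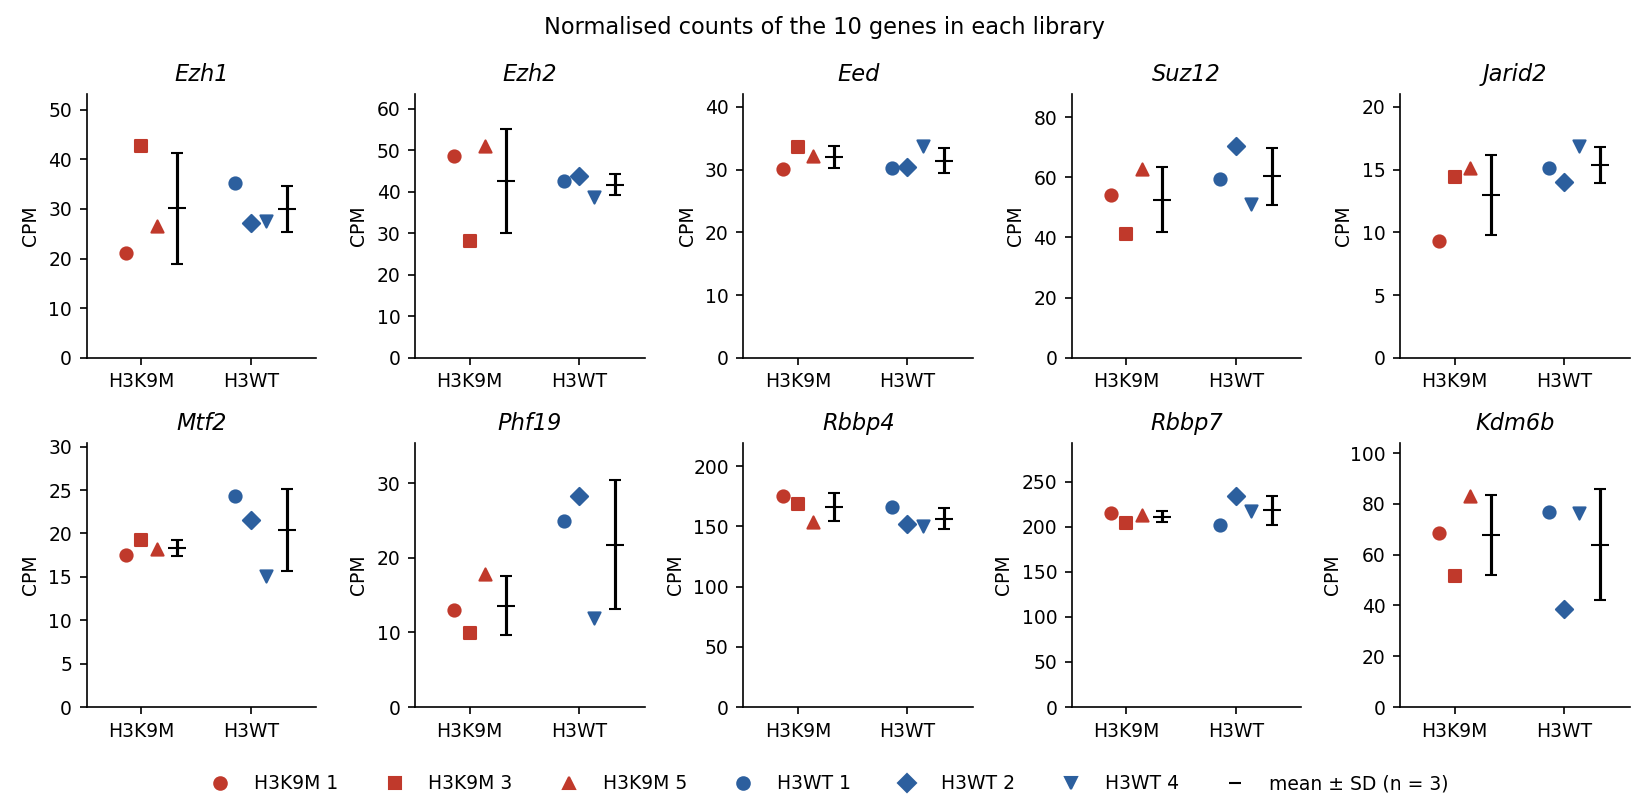
Normalised counts (CPM, y axis from 0) of each of the 10 genes in the 6 libraries, H3K9M in red and H3WT in blue, with 1 symbol per library and the mean ± SD of 3 libraries as a black bar. The points of the groups overlap in every panel, and Ezh1, Phf19 and Kdm6b show the widest scatter.

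**Figure D2:**
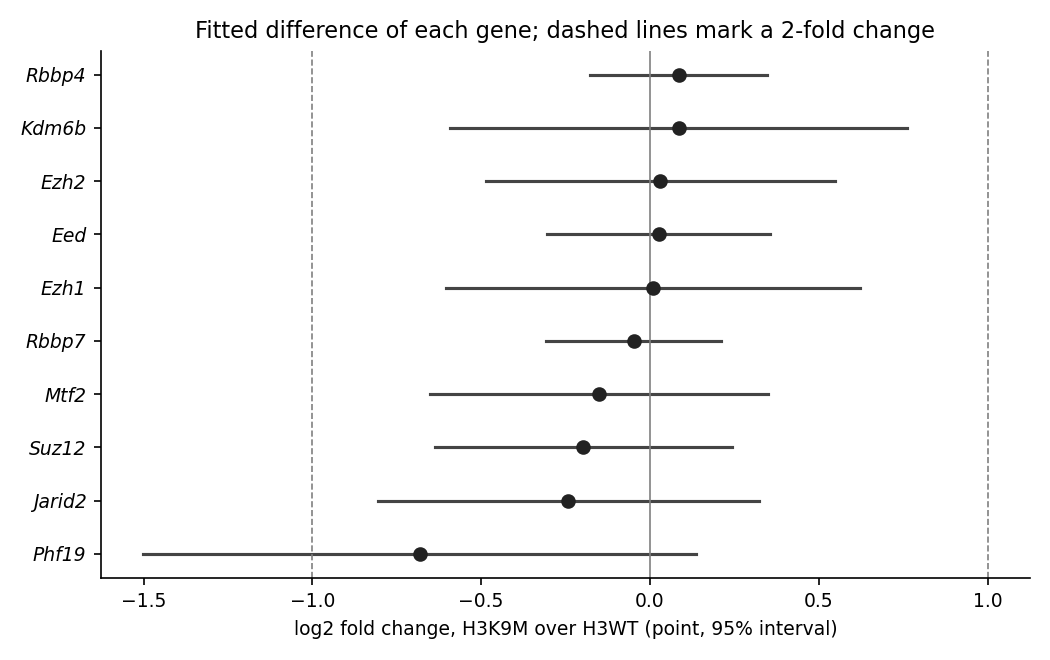
Fitted log2 fold change of H3K9M over H3WT for each gene (point) with its 95% interval (line), with dashed lines at a 2-fold change. Of the 10 intervals, 9 lie inside the dashed lines, and that of Phf19 runs from -1.50 to 0.14.

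Ezh2 (chr6:47530139-47595341, minus strand), the main methyltransferase of dividing cells, had 48.8, 28.3 and 51.0 CPM in H3K9M replicates 1, 3 and 5, and 42.6, 43.8 and 38.9 CPM in H3WT replicates 1, 2 and 4. The H3WT libraries were tight, whereas H3K9M replicate 3 lay below all others and the other H3K9M libraries lay above all H3WT ones. The means were 42.7 ± 12.5 and 41.8 ± 2.58 CPM (SD, n = 3 each), with a log2 fold change of 0.03 (95% interval -0.49 to 0.55, adjusted p 0.975, edgeR). Its sign was not stable, at -0.11 once length and GC content of transcripts were offset in the fit.

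Ezh1 (chr11:101191115-101226463, minus strand), the catalytic subunit known from resting and differentiated cells, had 21.2, 42.6 and 26.6 CPM in H3K9M and 35.3, 27.1 and 27.6 CPM in H3WT, in the same order of replicates. Here H3K9M replicate 3 was the highest library, and H3K9M replicate 1 the lowest. The means were 30.1 ± 11.1 and 29.99 ± 4.57 CPM (SD, n = 3 each), and the log2 fold change was 0.01 (interval -0.60 to 0.62, adjusted p 0.993, edgeR), and without H3K9M replicate 3 it was -0.32. Within a library the count ratio of Ezh1 to Ezh2 was 1.51 in H3K9M replicate 3 and between 0.435 and 0.829 in the other 5. Per kilobase of the longest annotated transcript the genes were then level in H3K9M replicate 3, at 10.1 CPM per kilobase each, while in the other libraries Ezh2 had 13.95 to 18.3 and Ezh1 5.03 to 8.38. The longest transcripts have 4207 (Ezh1) and 2787 bases (Ezh2), and the unions of exons 7440 and 6678 bases. The level values therefore hold only for the longest transcripts. Between the groups no difference in the ratio passed (mean log2 difference -0.03, exact permutation p 1.0, two-sided, where 3 against 3 cannot go below 0.1).

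SUZ12 and EED form the core with the catalytic subunit: SUZ12 is the scaffold, and EED binds the finished mark and stimulates the enzyme. Suz12 (chr11:79993106-80034123, plus strand) had 54.0, 41.1 and 62.8 CPM in H3K9M and 59.5, 70.3 and 51.1 CPM in H3WT. Again H3K9M replicate 3 was lowest, with H3WT replicate 4 next. The log2 fold change was -0.20 (interval -0.64 to 0.24, adjusted p 0.726, edgeR), and 0.06 without H3K9M replicates 1 and 3.

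Eed (chr7:89954654-89980983, minus strand) varied least of the 10. It had 30.1, 33.6 and 32.2 CPM in H3K9M and 30.2, 30.4 and 33.7 CPM in H3WT, so that the highest library was 1.12 times the lowest, where the median over tested genes was 1.82. Its log2 fold change was 0.03 (interval -0.30 to 0.35, adjusted p 0.963, edgeR).

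Rbbp4 and Rbbp7 encode histone-binding WD40 proteins that serve PRC2 and also the deacetylase, remodelling and histone-assembly complexes NuRD, SIN3 and CAF-1. They were the most abundant of the 10 and nearly as even as Eed. Rbbp7 (chrX:162760402-162779092, plus strand) had 216, 205 and 213 CPM in H3K9M and 202, 235 and 218 CPM in H3WT. H3WT libraries lay on either side of the H3K9M ones, and the fitted log2 difference was -0.05 (interval -0.31 to 0.21, adjusted p 0.904, edgeR). For Rbbp4 (chr4:129307100-129335370, minus strand) the values were 175.5, 168.9 and 153.3 CPM against 166.2, 152.2 and 150.5 CPM, and the fitted log2 difference was 0.09 (interval -0.18 to 0.35, adjusted p 0.816). These 2 intervals were the narrowest of the 10, and the highest library exceeded the lowest by 1.17 times for Rbbp4 and 1.16 times for Rbbp7. A transcript of Gm6382 is 97.1% identical to that of Rbbp7 over 942 bases, so reads of Rbbp7 could have been lost or gained there. The genes Rbbp4 and Sync overlap on opposite strands (up to 37.2 CPM assigned to Sync). Rbbp4 is also 90.4% identical to Atad2 over 219 bases (up to 93.7 CPM assigned to Atad2).

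Of the accessory subunits, Jarid2 binds nucleosomes that carry the PRC1 mark and Mtf2 binds unmethylated CpG DNA. Jarid2 (chr13:44729474-44921643, plus strand), the least abundant per kilobase, had 9.31, 14.4 and 15.1 CPM in H3K9M and 15.2, 14.01 and 16.8 CPM in H3WT. A single library, H3K9M replicate 1, was low, and without it the log2 fold change moved from -0.24 (interval -0.81 to 0.32, adjusted p 0.741, edgeR) to -0.05. Mtf2 (chr5:108065674-108109004, plus strand) had 17.5, 19.2 and 18.3 CPM in H3K9M and 24.4, 21.5 and 15.1 CPM in H3WT. The H3K9M libraries lay between the H3WT libraries, and the log2 fold change was -0.15 (interval -0.65 to 0.35, adjusted p 0.834). It was -0.000637 without H3WT replicate 1, -0.32 without H3WT replicate 4 and -0.31 once length and GC were offset. Mtf2 shares exon sequence with Tmed5 on the opposite strand (396 identical bases, with up to 85.9 CPM assigned to Tmed5), and the strand setting of the counting is not given.

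Phf19 (chr2:34893757-34914026, minus strand), a paralog of Mtf2 that recognises methylated H3 lysine 36, showed the largest fitted difference of the 10 and the widest spread. It had 13, 9.91 and 17.8 CPM in H3K9M and 25.0, 28.3 and 12.0 CPM in H3WT. H3WT replicates 1 and 2 lay above all H3K9M libraries, but H3WT replicate 4 lay below 2 of them. The means were 13.6 ± 3.98 and 21.8 ± 8.65 CPM (SD, n = 3 each), and the log2 fold change of -0.68 (SE 0.36, interval -1.50 to 0.14) did not pass (unadjusted p 0.0914, adjusted p 0.474, edgeR). The value depended on single libraries: it was -0.97 without H3WT replicate 4 (unadjusted p 0.0112, adjusted p 0.495), -0.44 without H3WT replicate 2, -0.49 without H3K9M replicate 3 and -0.28 without H3K9M replicates 1 and 3. The interval of Phf19 includes a 2-fold lower level in H3K9M.

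Ezh2, Suz12 and Phf19 shared their lowest 2 libraries, while the order of the other 4 libraries differed between these genes. In each of these 3 genes the lowest values were those of H3K9M replicate 3 and H3WT replicate 4, 1 library of each group. A list of 20 proliferation genes (mitosis genes and targets of E2F, the transcription factors that drive entry into S phase) summed to 1596 CPM in H3K9M replicate 3 and 1792 CPM in H3WT replicate 4, against 2457 to 2776 CPM in the other 4 libraries. Mki67, which marks cycling cells, had 302 and 410 CPM in those libraries and 532 to 675 CPM in the others. This order was noticed after the values were seen. The same pair of libraries was lowest in 16 of the 20 proliferation genes and in 6.72% of all tested genes. Eed had its 2 highest values in that pair, and in the other 6 genes the pair did not hold the lowest 2. The part of proliferation in the Phf19 difference was not tested. Without that pair of libraries the log2 fold change of Phf19 was -0.79 (unadjusted p 0.023, adjusted p 0.631, edgeR).

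**Figure D3:**
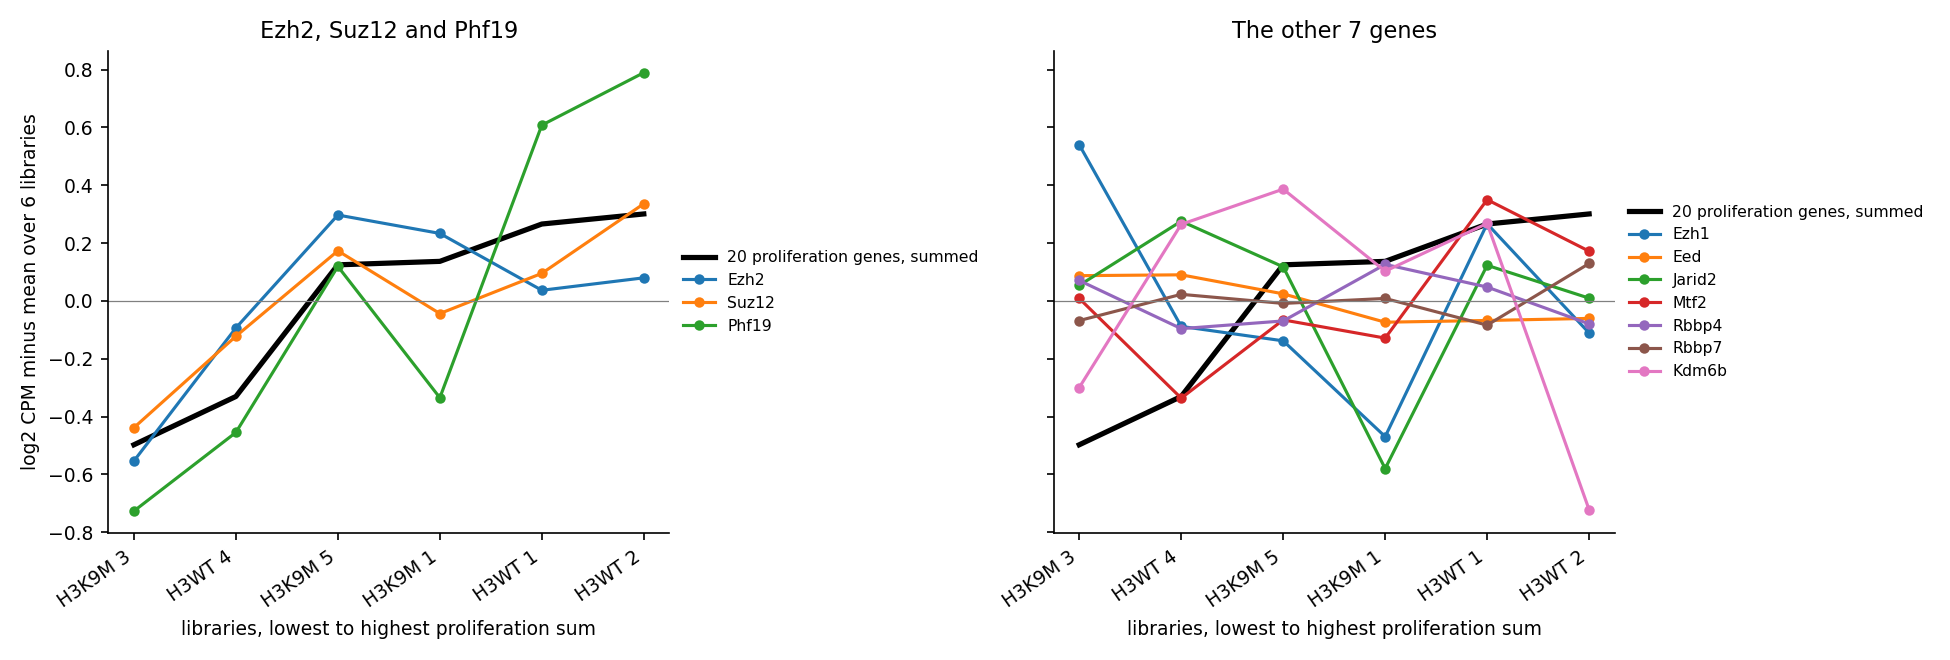
Log2 CPM minus its mean over the 6 libraries (y axis) for Ezh2, Suz12 and Phf19 (left) and the other 7 genes (right), with libraries ordered from the lowest to the highest sum of 20 proliferation genes (black line). The lines of Ezh2, Suz12 and Phf19 are lowest in H3K9M replicate 3 and H3WT replicate 4, where the proliferation sum was 1596 and 1792 CPM. On the right this pair together holds the lowest 2 values of no gene. Mtf2 and Rbbp4 are each lowest in H3WT replicate 4, and Kdm6b and Rbbp7 have H3K9M replicate 3 among their lowest 2.

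Promoters of the members were read because Ezh2, Suz12 and Phf19 shared their lowest 2 libraries. RefSeq windows on GRCm38 (mm10), from 250 bases before to 50 after a transcription start, were found for 9 of the 10 genes (all but Kdm6b) in 11 windows. They were searched on both strands for the 4 E2F-type words TTTCCCGC, TTTGGCGC, TTTCGCGC and TTTGCCGC, which differ from each other only in their middle bases. The members with a word were Ezh2, Suz12 and Phf19, 3 of 9, against 4.65% of the 10171 tested genes with a window and 2.26% of all windows. The search was prompted by these same 3 genes, and the shares were not matched for GC or CpG content, so they are no test of an excess. The member windows had 45.7% to 75.7% GC. The stretches are shown because they set these 3 genes apart from the other 6. They are printed 5′ to 3′ on the strand of the gene, with the word in capitals (in Phf19 the word lies on the opposite strand and is printed as its reverse complement).
Suz12: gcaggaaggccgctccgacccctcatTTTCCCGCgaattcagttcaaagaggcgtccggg
Phf19: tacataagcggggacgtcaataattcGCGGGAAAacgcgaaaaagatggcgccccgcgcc
Ezh2: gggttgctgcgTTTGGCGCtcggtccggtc
The Suz12 stretch is chr11:79992861-79992920 on the plus strand, where the word begins 219 bases before the start and overlaps no annotated gene. That of Phf19 is chr2:34914151-34914210 on the minus strand, with the word 208 bases before the start, inside the gene Gm13448 on the other strand. In Ezh2 the stretch is chr6:47595009-47595038 on the minus strand, and the word begins at base 4 of the transcript, in an exon of the 5′ untranslated region. Over the tested genes, H3K9M replicate 3 and H3WT replicate 4 held the lowest values in 64 of 473 genes with a word (13.5%) and in 635 of 9698 without (6.55%). That pair of libraries had been picked from the values of Ezh2, Suz12 and Phf19, which are among the 473, as are 6 of the proliferation genes. These 2 shares were not matched for GC or CpG content either, so they too are no test. Whether E2F had a part in these values was not tested. A word is a match of letters and not a binding site, and 6 of the 18 proliferation genes with a window held one.

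The demethylases act against PRC2. Kdm6b (chr11:69398508-69413675, minus strand), the inducible H3K27 demethylase of inflammatory and differentiation responses, had 68.4, 51.7 and 83.3 CPM in H3K9M and 76.7, 38.6 and 76.5 CPM in H3WT. H3WT replicate 2 and H3K9M replicate 3, the libraries with the lowest sums of fibroblast markers (9766 and 11702 CPM), were its lowest 2. The markers of that list did not move together. Col1a1, Col1a2, Col3a1 and Thy1 were lowest in those 2 libraries, whereas Pdgfra was highest there (243 and 236 CPM). Tcf4 was highest in H3K9M replicate 3 (178 CPM). Whether the level of any of these markers had a part in the Kdm6b values was not tested. The means were 67.8 ± 15.8 and 63.9 ± 21.9 CPM (SD, n = 3 each), with a log2 fold change of 0.08 (interval -0.59 to 0.76, adjusted p 0.937, edgeR). The estimate was -0.17 when H3WT replicate 2 was left out, 0.39 without H3K9M replicates 1 and 3, and 0.42 once length and GC were offset, and none of these passed. Relative to Ezh2 in the same library, Kdm6b counts were 1.40, 1.83 and 1.63 in H3K9M and 1.80, 0.881 and 1.97 in H3WT, a mean log2 difference of 0.14 (exact permutation p 0.9).

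Kdm6a and Uty, the X- and Y-encoded relatives of Kdm6b, were not in the set of 10 and differed by library in opposite ways. Kdm6a had 16.9, 25.7 and 18.6 CPM in H3K9M and 19.3, 35.2 and 29.0 CPM in H3WT, and Uty had 20.6, 12.5 and 20.1 against 20.2, 11.3 and 13.9 CPM. Neither passed the test (log2 fold changes -0.45 and 0.23, adjusted p 0.526 and 0.807, edgeR). Kdm6a was 67.2% to 75.7% of the reads of the pair in H3K9M replicate 3 and H3WT replicates 2 and 4, and 45.2% to 48.9% in the other 3 libraries. Those same 3 libraries had the highest Xist, the RNA of the inactive X chromosome, at 327 to 407 CPM against 56.0 to 119 CPM, and the lowest sum of the Y-linked genes Ddx3y, Eif2s3y and Kdm5d, at 54.3 to 85.0 CPM against 128 to 136 CPM. Every library therefore held transcripts of both kinds. The sum of Kdm6a and Uty was 37.5, 38.2 and 38.7 CPM in H3K9M and 39.4, 46.5 and 42.9 CPM in H3WT, so that all H3K9M libraries lay under all H3WT libraries, the nearest being 38.7 and 39.4 CPM, as the libraries did in 8.68% of tested genes. That sum was formed after the values were seen and was not tested. Rbbp7, which is X-linked, did not follow this split, with 205, 235 and 218 CPM in the 3 Xist-high libraries and 202 to 216 CPM in the others.

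**Figure D4:**
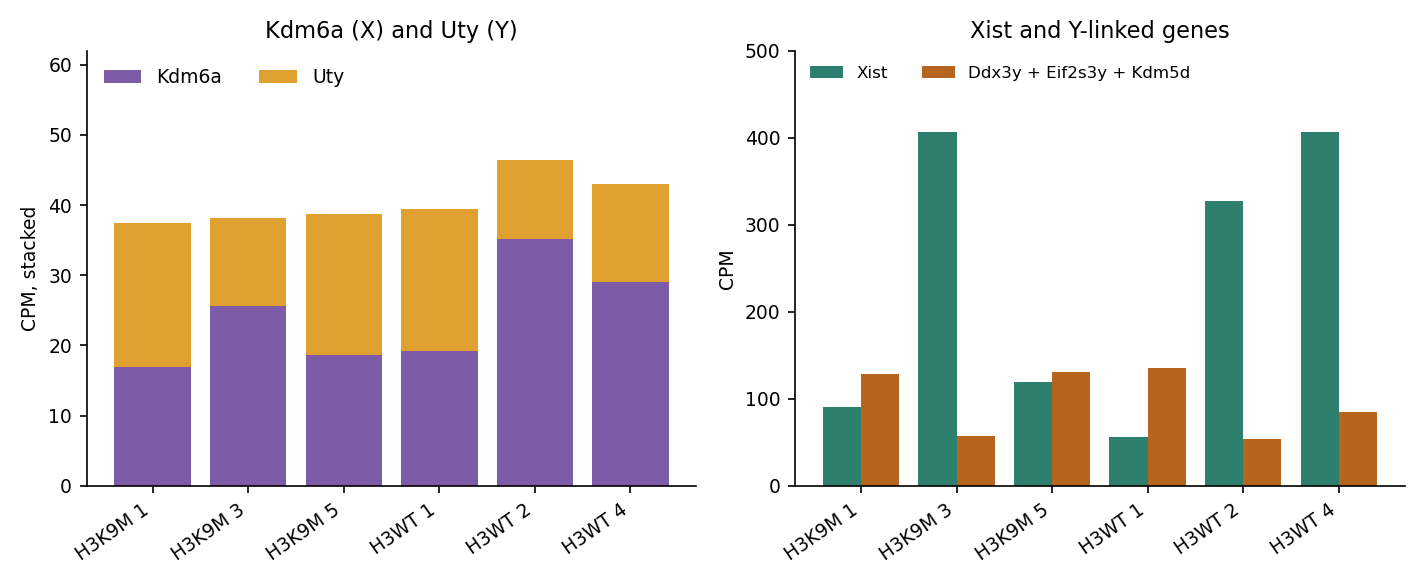
Left, CPM of Kdm6a and Uty stacked in each library; right, CPM of Xist and the summed CPM of 3 Y-linked genes. Kdm6a takes the larger share in H3K9M replicate 3 and H3WT replicates 2 and 4, where Xist is at 327 to 407 CPM.

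Levels were set against each other per kilobase of the longest transcript, over the 6 libraries. Rbbp7 led with 95.7 ± 5.14 CPM per kilobase and Rbbp4 followed with 34.5 ± 2.25 (SD over 6 libraries). Eed, Ezh2 and Suz12 came next at 15.3 ± 0.828, 15.1 ± 2.91 and 12.9 ± 2.31, then Kdm6b at 9.90 ± 2.59 and Ezh1 at 7.15 ± 1.81. Mtf2 (4.76 ± 0.797) and Phf19 (4.72 ± 2.01) were level, and Jarid2 was lowest at 1.69 ± 0.306. From Eed to Phf19 the ranges of mean ± SD of neighbours in this order overlapped, and those of Rbbp7, Rbbp4 and Jarid2 met no other. Dividing by the union of exons instead kept Rbbp7 and Rbbp4 at the head (73.8 and 18.4) and Jarid2 last (1.46), but put Suz12 (11.4) and Kdm6b (9.47) ahead of Eed (8.28) and Ezh2 (6.32), so the order in the middle depends on the length used.

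Ratios between genes within a library do not depend on scaling between libraries, and 6 were compared, Ezh1 to Ezh2 and Kdm6b to Ezh2 among them. Each accessory subunit was set against Suz12. Phf19 to Suz12 counts were 0.241, 0.242 and 0.284 in H3K9M and 0.421, 0.404 and 0.234 in H3WT, a mean log2 difference of -0.42 (exact permutation p 0.4, adjusted 1.0). The H3WT libraries fell on either side of the H3K9M libraries. Jarid2 to Suz12 ran from 0.173 to 0.352 in H3K9M and from 0.200 to 0.330 in H3WT, and Mtf2 to Suz12 from 0.291 to 0.469 and from 0.297 to 0.410. For Rbbp7 to Rbbp4 the ranges were 1.21 to 1.39 and 1.22 to 1.54 (mean log2 difference -0.13, exact permutation p 0.3). No ratio separated the groups, and all 6 adjusted p-values were 1.0.

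Partners of the 10 genes were read from lists of general knowledge. Among 5 tested further PRC2 subunits (Ezhip, a PRC2 inhibitor, had 0 counts), 0 passed an adjusted or unadjusted p of 0.05. Epop, listed as E130012A19Rik, had 3.28, 0.870 and 4.18 CPM in H3K9M and 7.75, 5.14 and 4.24 CPM in H3WT, with the groups just apart, as in 8.68% of tested genes (log2 fold change -1.04, adjusted p 0.508, edgeR). Its value was -0.60 without H3K9M replicate 3 and -0.44 without H3K9M replicates 1 and 3. Lcor had a log2 fold change of 0.29 (adjusted p 0.641).

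PRC1, the reader of the PRC2 mark, had 14 tested genes in its canonical form. Their fitted values were below 0 in 12 of 14, where 50.4% of all tested genes were, with a median log2 fold change of -0.24. None passed the adjusted threshold. Cbx6, a chromodomain subunit, had 109.9, 110.1 and 86.0 CPM in H3K9M and 146, 122 and 140 CPM in H3WT (log2 fold change -0.41, interval -0.74 to -0.09, adjusted p 0.312, edgeR). All H3K9M libraries lay under all H3WT libraries for Cbx6, as they did for 8.68% of tested genes, and its unadjusted p was under 0.05, as in 5.77% of tested genes in that direction. Over the list the groups did not overlap in 4 of 14 genes, all lower in H3K9M. An unadjusted p under 0.05 was found in 2 of 14, both lower in H3K9M. Without H3K9M replicates 1 and 3 the value of Cbx6 was -0.65, and once length and GC were offset it was -0.14 (adjusted p 0.837). The list had 12 of 14 below 0 also with DESeq2 size factors and with library size alone, and 11 of 14, with a median of -0.14, once length and GC were offset.

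The other assemblies gave 0 genes past the adjusted threshold. Of 11 variant PRC1 genes 4 were fitted higher and 7 lower, but 6 were higher and 5 lower both once length and GC were offset and without H3WT replicate 2. The smallest p-values were those of Bcor (log2 fold change -0.39, adjusted p 0.411) and Yaf2 (0.58, adjusted p 0.414), which were -0.17 and 0.37 under that offset. In the H2A deubiquitinase PR-DUB, which removes the PRC1 mark, 7 of 8 were fitted lower (median -0.15), yet 2 of 8 under the offset (median 0.06) and 4 of 8 without H3K9M replicates 1 and 3. Foxk1 had -0.22 (adjusted p 0.476), turning to 0.06 under the offset, and Bap1, the catalytic subunit, had -0.24 (adjusted p 0.527), moving to -0.12.

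Of the 5 tested genes of the MLL3/4 complex that holds KDM6A, 4 were fitted lower, but 1 of 5 under the offset for length and GC and 2 of 5 without H3K9M replicates 1 and 3. The coactivator Ncoa6 had 87.3, 84.9 and 94.9 CPM in H3K9M and 115.6, 108.3 and 109.0 CPM in H3WT (log2 fold change -0.32, adjusted p 0.315, edgeR). Its groups did not overlap, as in 8.68% of tested genes, and its unadjusted p was under 0.05, as in 5.77%, and under the offset its value was -0.16. The methyltransferase Kmt2d had -0.22 (adjusted p 0.574) and 0.12 under the offset. Of 16 genes of the other complexes that hold Rbbp4 and Rbbp7, 1 had an unadjusted p under 0.05, beside 12.2% of all tested genes (5.77% lower). This was Chaf1a of CAF-1, at 64.4, 45.7 and 65.2 CPM in H3K9M and 92.0, 94.6 and 62.4 CPM in H3WT (log2 fold change -0.51, adjusted p 0.382, edgeR), and -0.30 under the offset. Mbd3 of NuRD had -0.22 (adjusted p 0.647).

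**Figure D5:**
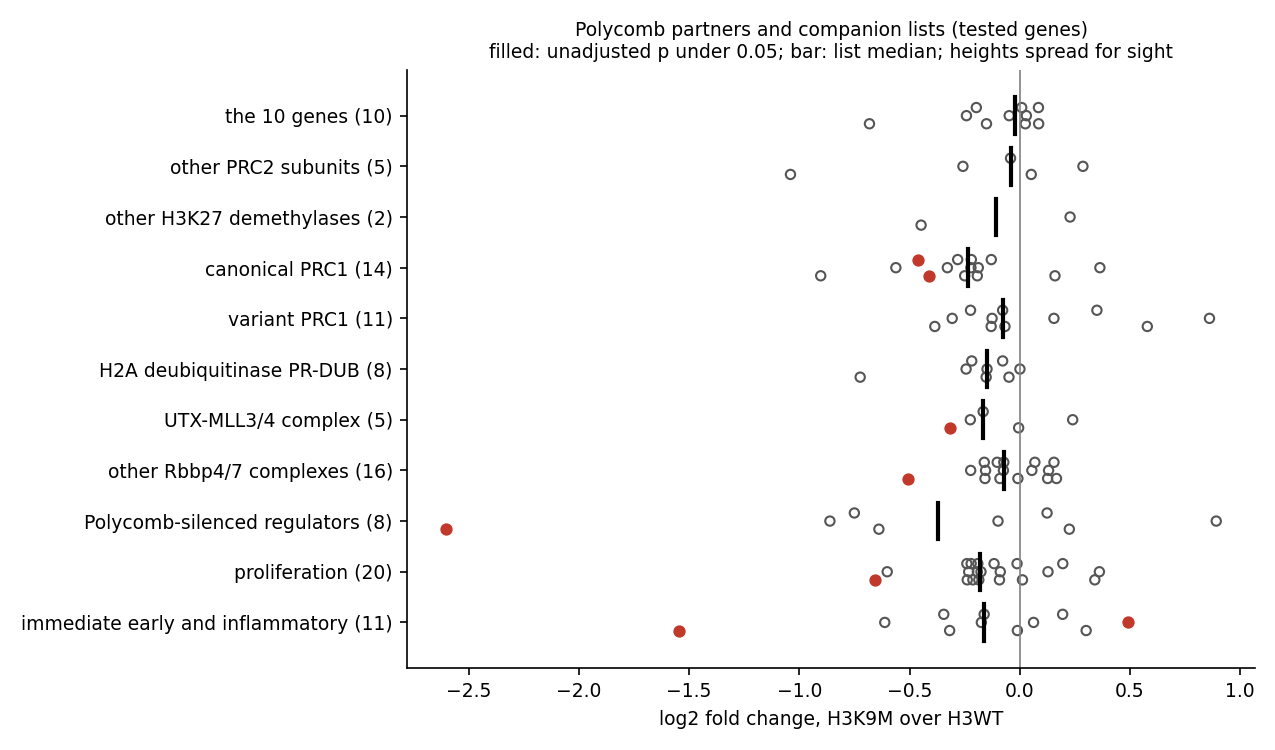
Log2 fold change of H3K9M over H3WT (x axis) for each tested gene of the 10 and of the companion lists (rows, number tested in brackets); filled points have an unadjusted p under 0.05 and bars are list medians. The 10 genes have no filled point and a median of -0.02, and canonical PRC1 has 12 of 14 points left of 0.

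Developmental regulators known from other cells as PRC2-silenced genes were mostly near 0 in both groups. Of 26 such genes outside the Hox clusters, 10 had 0 counts in all 6 libraries, 12 (these included) had at most 3 counts in total, and 8 passed the filter. Cdkn2a, the cell-cycle inhibitor locus that PRC2 is known to repress in dividing cells, had 26.8, 43.1 and 19.6 CPM in H3K9M and 14.1, 9.5 and 24.7 CPM in H3WT. H3K9M replicate 3 was the highest library and the groups overlapped (log2 fold change 0.89, interval -0.06 to 1.85, adjusted p 0.432, edgeR), and the value was 0.54 without H3K9M replicate 3, 1.34 without H3WT replicate 4 and 0.29 without H3K9M replicates 1 and 3. Lhx2, a limb and neural homeobox gene, was low, with 0.201, 0.676 and 0.357 CPM in H3K9M and 2.64, 0.882 and 4.18 CPM in H3WT (log2 fold change -2.60, adjusted p 0.315). It was the 1 gene of the 8 with an unadjusted p under 0.05, a share near the 12.2% of all tested genes. The groups did not overlap in Lhx2, as in 8.68% of tested genes in the lower direction.

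Among the proliferation genes 15 of 20 were fitted lower in H3K9M, with E2f1 (log2 fold change -0.66, adjusted p 0.361, edgeR) and Cdc6 (-0.60, adjusted p 0.465) at the smallest p-values. Without H3K9M replicate 3 the count was 8 of 20, and E2f1 was -0.44. Of 11 immediate early and inflammatory genes, a list kept beside Kdm6b, Junb had 97.3, 84.7 and 104.1 CPM in H3K9M and 73.9, 67.9 and 61.8 CPM in H3WT (log2 fold change 0.49, adjusted p 0.239), and the chemokine Cxcl1 had -1.55 (adjusted p 0.346). In both of these genes the groups did not overlap, beside 10.7% of tested genes in the higher direction and 8.68% in the lower.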

How the data were processed

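Read counts per gene symbol were used as the authors deposited them, 1 column per library. The submitters' processing notes name HISAT2, featureCounts, DESeq2 and the build mm10, without roles or versions. The annotation and the strand and multi-mapping settings are not given in the sources used here. Column names equalled sample titles. Nothing in the labels says that replicates came from separate animals, so p-values measure the spread between these libraries.

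Counts were fitted in R 4.3.3 with edgeR 4.0.16 (filterByExpr, TMM, robust glmQLFit, glmQLFTest, genotype as the only term) over the 6 libraries, with p-values adjusted over 13761 genes. Intervals (95%) use the fit's standard errors and t quantiles. Alternatives were DESeq2 1.42.0, limma-voom (limma 3.58.1), other scalings and filters, no robust estimation, an offset by loess for length and GC of each transcript (span 0.5, 12976 genes, 94.3% of those tested), and leaving out libraries. Ratios had 0.5 added to each count. The fit was also run on simulated counts, drawn gene by gene without the differences between libraries that many genes share here. Its outcome is not used in this report. Lengths, overlaps and coordinates are from GENCODE M21 and promoters from RefSeq, both on GRCm38. The members and lists were chosen with earlier results of these data known. Genes named from a list are those past the threshold or, where it had none, the 2 with the smallest p, of which 1 gene is not reported here; Mki67 and markers were named after their values were seen.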

Additional observations from a re-analysis of the deposited data

How the results depend on the processing

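No paired analysis was possible because the groups share only replicate number 1. In 160 refits of the 10 genes under 16 alternatives, 0 passed an adjusted p of 0.05 (the smallest was 0.439, Phf19 with at least 10 counts in every library), and 20 turned sign. The count of changed genes, 0 as reported, was 367 with DESeq2, 36 with every gene that had a count, 0 to 91 when a library was left out (91 without H3WT replicate 2), and 1 without H3K9M replicates 1 and 3; the cause was not tested. None of these calls was among the 10 genes. Members under an unadjusted p of 0.05 were 0 to 1 without single libraries and 1 (Phf19) without H3K9M replicate 3 and H3WT replicate 4. Leaving out pairs of libraries was chosen after seeing the data. The number of the 10 with an interval inside a 2-fold change was 8 to 9 when a library was left out and 7 under either omission of 2 libraries.

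With limma-voom Ezh1 was -0.0098 and Ezh2 -0.036. With the length and GC offset Ezh2 was -0.111, Eed -0.114, Foxk1 0.058 and Kmt2d 0.115. With library size alone Rbbp7 was 0.0051. Without H3K9M replicates 1 and 3, Ezh1 was -0.165, Suz12 0.064, Rbbp4 -0.022, Kmt2d 0.0037 and Mbd3 0.021, and without H3K9M replicate 3 and H3WT replicate 4, Ezh1 was -0.382 (Kdm6b, with no change of sign, was 0.398). When a library was left out, Ezh1 ran from -0.316 to 0.21, Ezh2 from -0.109 to 0.266, Eed from -0.0023 to 0.0802, Rbbp7 from -0.0993 to 0.0176 and Kdm6b from -0.166 to 0.258. The log2 ratio differences ran from -0.583 to 0.314 (Ezh1 to Ezh2), -0.224 to 0.356 (Kdm6b to Ezh2), -0.328 to 0.185 (Jarid2 to Suz12) and -0.12 to 0.23 (Mtf2 to Suz12).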
